A study of Homo sapiens with 12 samples.

Results

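The snoRNA host genes described here are GAS5, SNHG1, SNHG5, SNHG6, SNHG8, SNHG12, SNHG15, SNHG16, ZFAS1 and EPB41L4A-AS1, 10 of the 60669 genes counted in ovarian cancer (OC) cells treated with quinacrine (QC), an antimalarial drug. They were chosen by name, as non-coding transcripts that carry small nucleolar RNAs (snoRNAs) in their introns, and were found in the count table through their Ensembl identifiers. The choice was made with earlier results of these data known, so the shares of all genes set beside host gene counts are descriptive. RNA-seq was performed on 6 established human OC cell lines, with cells of each line exposed to QC at 8 µM, or to vehicle only, over 6 h. HeyA8, SKOV3 and OV2008 were labelled sensitive to chemotherapy. HeyA8_MDR, SKOV3_TR and OV2008_C13 were labelled resistant, and the study's methods describe them as isogenic partners made resistant to carboplatin, taxol and cisplatin, respectively. No transgene or gene deletion was described for any group. There was 1 library per line and treatment, 12 in all, so a line had no replicate of its own, and the 3 lines of a group stood in as its replicates, each as a single cell population. The question was how the level of each host gene differed between QC and vehicle in each line, and whether that difference varied between sensitive and resistant cells.

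A snoRNA host gene is transcribed by RNA polymerase II and spliced, the snoRNAs are trimmed out of its introns, and they then guide 2′-O-methylation (C/D box class) or pseudouridylation (H/ACA box class) of ribosomal RNA in the nucleolus. Many host genes start with a run of pyrimidines, as ribosomal protein genes do, a feature called the terminal oligopyrimidine tract that ties translation to growth signals. The spliced host RNA has little or no coding capacity, and for several hosts it is removed by nonsense-mediated decay (NMD) once ribosomes engage it, so that its level is sensitive to growth arrest and to blocked translation. GAS5 takes its name, growth arrest-specific, from this behaviour.

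The start regions of 7 host genes are printed because the pyrimidine run at base 1 is the sequence feature for which this gene class is known, and because such a run covers base 1 in 5 of them and not in the other two. Each window holds 20 bases before an annotated RefSeq start site and 50 bases from that site on, written in the direction of transcription. Capitals mark a run of C and T that covers base 1, the first base from that site. For SNHG12 and ZFAS1 the site used lies inside the annotated gene, downstream of its outermost start.
SNHG1: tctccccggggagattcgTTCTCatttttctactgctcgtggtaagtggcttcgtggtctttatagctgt
SNHG5: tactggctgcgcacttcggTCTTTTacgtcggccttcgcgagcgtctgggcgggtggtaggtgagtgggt
SNHG8: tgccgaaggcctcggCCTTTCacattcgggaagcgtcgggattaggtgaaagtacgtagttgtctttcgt
SNHG12: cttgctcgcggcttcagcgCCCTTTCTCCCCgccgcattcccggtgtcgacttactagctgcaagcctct
ZFAS1: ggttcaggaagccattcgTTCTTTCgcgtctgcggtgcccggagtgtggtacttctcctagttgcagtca
GAS5: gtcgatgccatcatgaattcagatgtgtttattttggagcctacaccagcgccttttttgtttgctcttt
SNHG16: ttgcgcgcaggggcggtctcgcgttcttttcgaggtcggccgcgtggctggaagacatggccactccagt

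These sequences come from RefSeq on GRCh38.p14. The windows on the minus strand are chr11:62855836-62855905 for SNHG1, chr6:85678684-85678753 for SNHG5, chr1:28581824-28581893 for SNHG12 and chr1:173868996-173869065 for GAS5. Those on the plus strand are chr4:118278742-118278811 for SNHG8, chr20:49278622-49278691 for ZFAS1 and chr17:76557744-76557813 for SNHG16. In SNHG12 base 1 is position 28581873, while the annotated gene reaches 28582983, which is upstream on the minus strand. In ZFAS1 base 1 is position 49278642, while the annotated gene begins at 49278178. The outermost starts of these genes were not searched for a run. Of the 10 host genes, 8 had an entry in the promoter table, and 5 of these 8 had a run of at least 5 pyrimidines over base 1. It was 12 bases long in SNHG12, 7 in ZFAS1, 6 in SNHG5 and SNHG8, and 5 in SNHG1, against 4 in EPB41L4A-AS1. The run began upstream of the start in each, at position -1 in SNHG5 and SNHG12 and -2 in SNHG1 and ZFAS1. In SNHG8 it began at -5 and ended at base 1, so all of it but that base lies before the annotated start. A run of at least 5, searched on the transcribed strand only, covered base 1 in 9.60% of all 35116 promoters of the same window. GAS5 and SNHG16 had no C or T at base 1. Their longest runs, 8 bases each, began at base 32 in GAS5 and at base 4 in SNHG16. SNHG6 and SNHG15 had no entry.

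Library totals lay between 17782556 and 30585059 counts. The epithelial keratins KRT8 and KRT18 were present in every library, with at least 211 and 161 CPM (counts scaled to a common library size), whereas KRT19, EPCAM and CDH1 were at 3 counts or fewer in both HeyA8_MDR libraries. The ovarian lineage factor PAX8 ranged from 7.56 CPM in OV2008 vehicle cells to 480 CPM in SKOV3_TR vehicle cells, and MUC16 was at 3 counts or fewer in 3 libraries. The 4 immune markers summed to at most 1.4 CPM, and the endothelial marker CDH5 reached 176 CPM in QC-treated HeyA8_MDR cells. The HeyA8 QC library stood apart from the others. Over the 75 genes at least 8-fold lower in HeyA8_MDR than in HeyA8 vehicle cells, it lay a median 51.3% of the way from HeyA8 to HeyA8_MDR, and over the 32 genes at least 8-fold higher it lay 38.4% of the way. The OV2008 QC library lay 31.3% of the way to OV2008_C13 over the 41 genes lower there, and the other 9 such medians were 17.7% or less. Most fitted host gene medians and single host gene estimates that include this library are therefore also given without HeyA8. Group means with SD, values under RPLP0 scaling and values of the other gene lists are not.

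Across the 6 lines, QC-treated cells had lower estimated levels of all 10 host genes, although 5 of them (GAS5, SNHG1, SNHG6, SNHG8 and ZFAS1) lay above 0 when libraries were scaled to the ribosomal protein gene RPLP0, and none passed the adjusted threshold. The median estimate was -0.18 on the log2 scale, beside 0.000101 over all 18720 genes tested, and 50.0% of those genes had an estimate below 0. The estimates came from edgeR's quasi-likelihood test with a term for each cell line, on counts scaled by TMM (trimmed mean of M-values). SNHG5, SNHG15 and SNHG16 had unadjusted p-values under 0.05, 3 of 10 host genes, where 7.18% of all genes tested were lower at that threshold. After Benjamini-Hochberg adjustment over all genes, 0 of 18720 genes and 0 host genes passed 0.05 in edgeR with its expression filter, and 791 of 39590 genes did without the filter, again with 0 host genes. DESeq2 called 518 of 18720 genes and 0 host genes after adjustment, and 2901 genes and 3 host genes at the unadjusted threshold. Leaving out 1 line put the median between -0.14 (without HeyA8_MDR) and -0.27 (without OV2008), with -0.16 without HeyA8 and -0.26 without SKOV3. Without HeyA8, SNHG5 alone had an unadjusted p under 0.05. It was also the only such host gene without HeyA8_MDR and without OV2008, and none had one without OV2008_C13. These are shares of a library, so fewer cells with a transcript and less RNA per cell cannot be told apart.

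**Figure D1:**
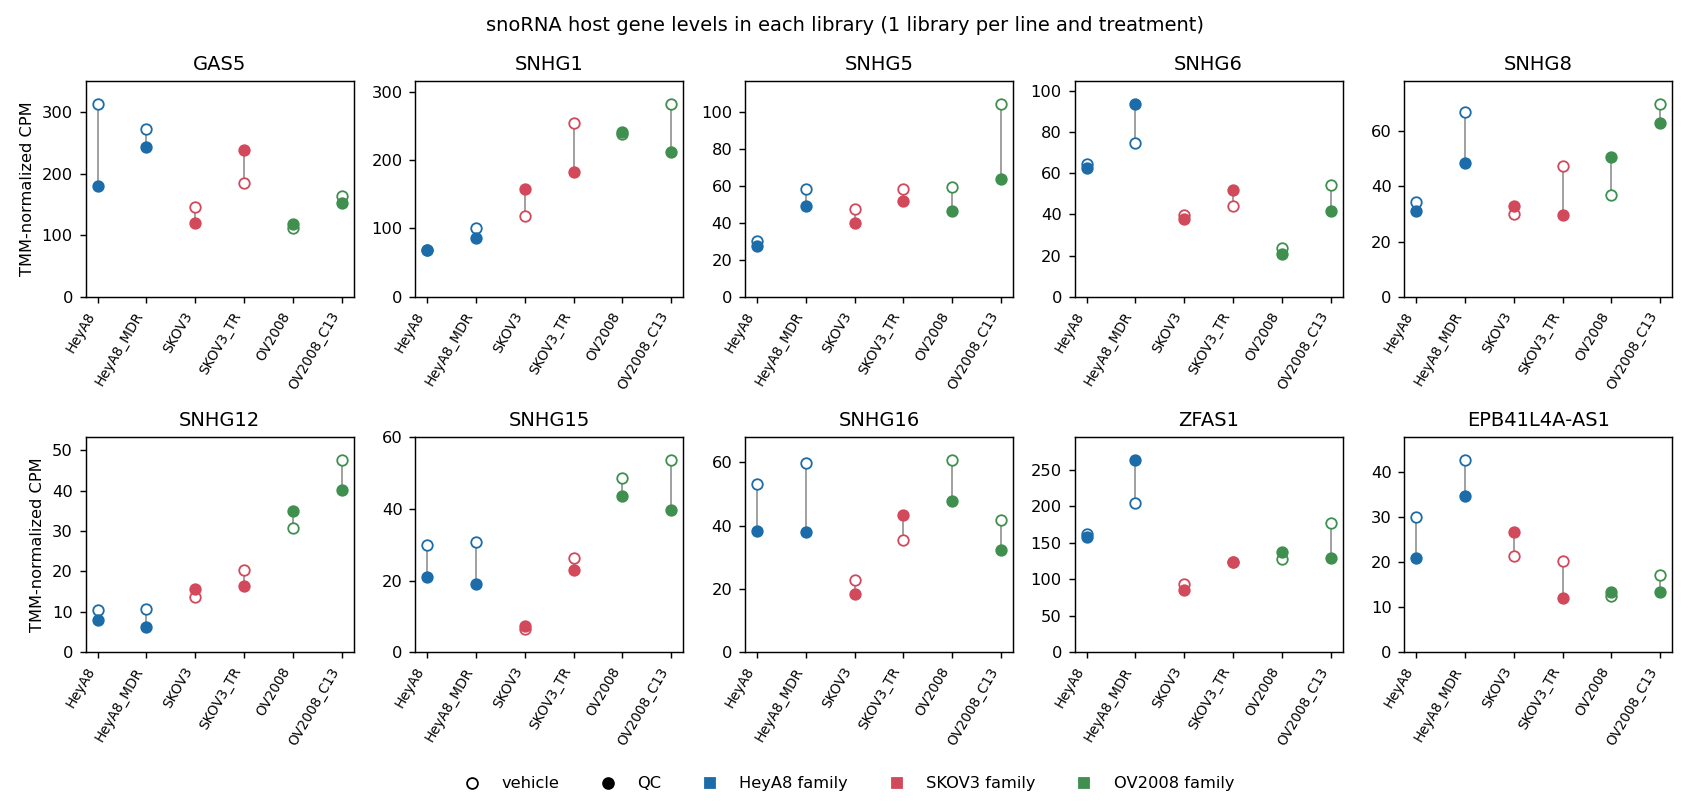
Level of each snoRNA host gene, in TMM-normalized CPM on the y axis, in the vehicle library (open circle) and the QC library (filled circle) of each of the 6 cell lines on the x axis; grey lines join the 2 libraries of a line and colours mark isogenic families. The filled circle lies below the open one in all 6 lines for SNHG5, and the highest library is 7.73-fold above the lowest for SNHG12 and 8.34-fold for SNHG15.

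SNHG5, the host of the C/D box snoRNAs SNORD50A and SNORD50B, was the one host gene with a lower level under QC in all 6 lines, a pattern shared by 4.60% of the genes tested. In sensitive cells it went from 30.2 to 27.4 CPM in HeyA8, from 47.4 to 39.8 CPM in SKOV3 and from 59.4 to 46.6 CPM in OV2008. In resistant cells it went from 58.3 to 49.0 CPM in HeyA8_MDR, from 58.1 to 51.7 CPM in SKOV3_TR and from 104 to 63.9 CPM in OV2008_C13. The vehicle and QC levels overlapped between lines, since the lines differed more from one another than by treatment. The largest difference, -0.71 on the log2 scale with a 95% counting interval from -0.79 to -0.62, was in OV2008_C13, and the smallest, -0.14, was in HeyA8 with an interval from -0.29 to 0.01. Over the 6 lines the estimate was -0.31 (SE 0.116, edgeR unadjusted p = 0.0194, adjusted p = 0.236), and without HeyA8 it was -0.35. In 10 of 13 alternative analyses its unadjusted p was under 0.05, and its adjusted p lay between 0.112 and 1.

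SNHG16, the host of SNORD1A, SNORD1B and SNORD1C, was lower with QC in 5 of 6 lines. Its level went from 53.1 to 38.2 CPM in HeyA8, from 23.0 to 18.4 CPM in SKOV3 and from 60.8 to 47.8 CPM in OV2008, so the 3 sensitive lines moved together, with a mean log2 difference of -0.38 ± 0.0838 (SD, n = 3). The resistant lines were spread more widely, from 59.6 to 37.9 CPM in HeyA8_MDR and from 41.7 to 32.3 CPM in OV2008_C13, but from 35.5 to 43.4 CPM in SKOV3_TR. SKOV3_TR was thus the exception, and its counting interval on the log2 scale ran from 0.16 to 0.42. The 6-line estimate for SNHG16 was -0.31 (SE 0.135, edgeR unadjusted p = 0.0381, adjusted p = 0.300, and from 0.186 to 1 in the alternatives), and it was -0.28 without HeyA8.

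SNHG15, which hosts the H/ACA box snoRNA SNORA9, was likewise lower in 5 of 6 lines. Levels were 30.0 and 21.0 CPM in vehicle and QC cells of HeyA8, 48.7 and 43.7 CPM in OV2008, and 6.44 and 7.22 CPM in SKOV3. The SKOV3 pair rests on 154 and 159 counts, and its counting interval from -0.16 to 0.49 included 0. In the resistant lines the pairs were 30.6 and 19.1 CPM in HeyA8_MDR, 26.2 and 22.9 CPM in SKOV3_TR, and 53.7 and 39.6 CPM in OV2008_C13, each lower with QC. The 6-line estimate for SNHG15 was -0.31 (SE 0.136, edgeR unadjusted p = 0.0420, adjusted p = 0.310, and from 0.191 to 1 in the alternatives), and it was -0.27 without HeyA8. Lower levels in at least 5 of 6 lines were seen for these 3 host genes and for 16.3% of the genes tested. At the annotated start sites used here, SNHG5 has a pyrimidine run at base 1 and SNHG16 does not, though a run of 8 begins at base 4 there. Whether transcripts in these cells start at those sites was not tested.

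GAS5 hosts 10 of the C/D box snoRNAs listed here, among them SNORD44 and SNORD81, and showed the largest difference of any host gene in any line. It stood at 313 CPM in HeyA8 vehicle cells and at 179 CPM after QC, a log2 difference of -0.80 with a counting interval from -0.86 to -0.75. In the other sensitive lines GAS5 was at 146 and 120 CPM in SKOV3 and at 112 and 118 CPM in OV2008. The HeyA8 QC library is the one that stood apart, and the sensitive-line estimate for GAS5, -0.34 (SE 0.203, edgeR adjusted p = 0.778), was -0.10 without HeyA8. It was -0.54 without OV2008 (unadjusted p = 0.0470). The resistant pairs were 272 and 244 CPM in HeyA8_MDR, 186 and 238 CPM in SKOV3_TR, and 163 and 153 CPM in OV2008_C13. SKOV3_TR was again the line in which the QC library was higher, with an interval from 0.30 to 0.41. Over 6 lines the GAS5 estimate was -0.15 (edgeR unadjusted p = 0.315, adjusted p = 0.658), and it was -0.02 without HeyA8.

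**Figure D2:**
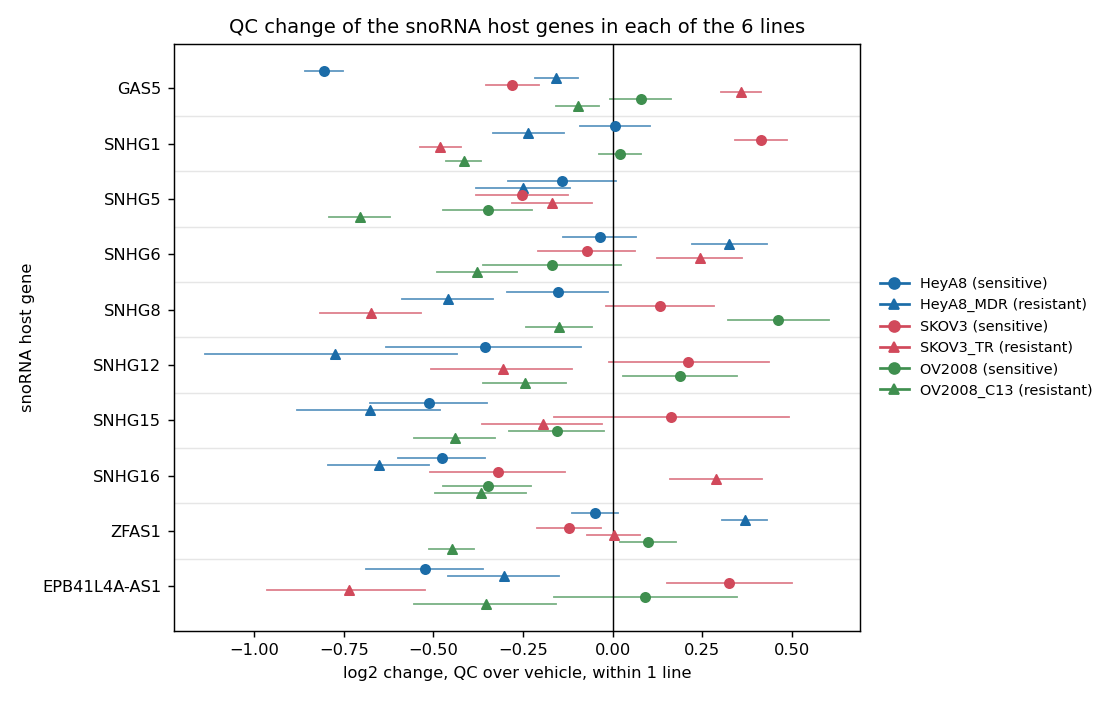
Difference between QC and vehicle within each line, as a log2 ratio on the x axis, for the 10 snoRNA host genes on the y axis; circles are sensitive lines, triangles are resistant lines, colours are isogenic families, and bars are exact 95% intervals that cover counting error only. Points left of 0 are lower with QC: 42 of the 60 points lie there, 24 of 30 in resistant and 18 of 30 in sensitive lines.

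Of the 60 pairs of a line and a host gene, 42 were lower with QC, and 47 of the 60 counting intervals excluded 0. These intervals cover the sampling of reads alone, and no line had a second library from which to judge other variation. No share of such intervals over all genes tested was taken, so the count of 47 is not particular to the host genes. OV2008_C13 was lower for 10 of 10 host genes with a median log2 difference of -0.37, HeyA8 for 9 with a median of -0.26, and HeyA8_MDR for 8 with a median of -0.28. SKOV3_TR was lower for 6 (median -0.18), SKOV3 for 5 (median 0.03) and OV2008 for 4 (median 0.05). The same medians over all genes tested lay between -0.00466 and 0, and between 45.7% and 50.6% of them were lower. Without HeyA8, 33 of 50 pairs were lower, and in sensitive lines 9 of 20.

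In resistant lines, 8 of 10 host genes had estimates below 0 with a median of -0.38, beside -0.01 over all genes tested, and 51.3% of those were below 0. Lower levels in all 3 resistant lines were found for 6 host genes (SNHG1, SNHG5, SNHG8, SNHG12, SNHG15 and EPB41L4A-AS1), beside 15.3% of all genes. SNHG1 and SNHG8 had unadjusted p-values under 0.05, where 2.59% of all genes were lower at that threshold. SNHG8, the host of SNORA24, had an estimate of -0.43 (SE 0.192, edgeR unadjusted p = 0.0472, adjusted p = 0.818), and SNHG1, the host of 8 C/D box snoRNAs of the SNORD22 and SNORD25 to SNORD31 group, had one of -0.38 (SE 0.171, unadjusted p = 0.0488, adjusted p = 0.818). SNHG12, SNHG15, SNHG5 and EPB41L4A-AS1, with estimates from -0.38 to -0.46, had unadjusted p-values between 0.0526 and 0.0713. In edgeR 0 host genes passed the adjusted threshold, and the number under 0.05 unadjusted was 1 in DESeq2, which found 1093 of 18720 genes there in either direction. In edgeR it was 0 without HeyA8_MDR, SKOV3, SKOV3_TR or OV2008, and 1 without OV2008_C13.

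In sensitive lines, 7 of 10 host genes had estimates below 0, but the median was -0.06, beside 0.02 over all genes, of which 48.5% were below 0. No host gene passed the adjusted threshold, and 0 had an unadjusted p under 0.05 in edgeR or in DESeq2, where edgeR found 3.04% of all genes lower at that threshold. SNHG5, SNHG6 and SNHG16 were lower in all 3 sensitive lines, as were 13.1% of all genes. SNHG16 had the estimate farthest from 0, -0.38 (SE 0.205, edgeR unadjusted p = 0.0875, adjusted p = 0.770), and it was -0.34 without HeyA8. The median over host genes was -0.01 without HeyA8 and -0.18 without SKOV3. Without HeyA8, EPB41L4A-AS1 went from -0.04 to 0.21. Without OV2008 the number under 0.05 unadjusted was 1, GAS5.

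**Figure D3:**
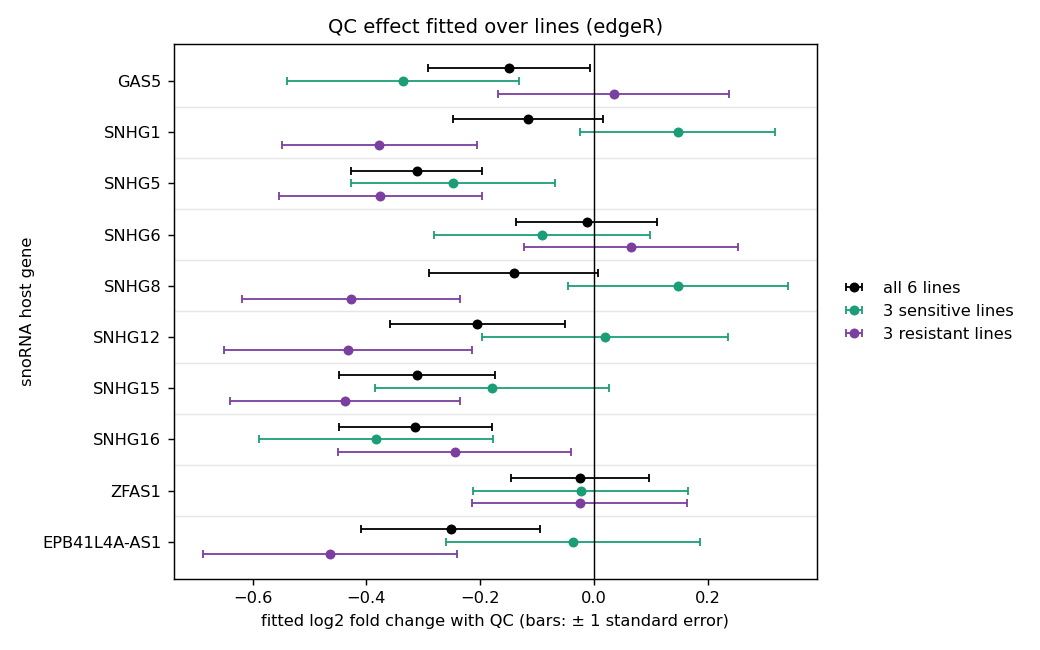
Fitted log2 fold change with QC on the x axis for each snoRNA host gene on the y axis, over all 6 lines (black), the 3 sensitive lines (green) and the 3 resistant lines (purple), with bars of 1 standard error. All black points lie below 0 under TMM scaling, but GAS5, SNHG1, SNHG6, SNHG8 and ZFAS1 lay above 0 with RPLP0 scaling; for SNHG1, SNHG8 and SNHG12 the purple and green bars do not overlap, and the differences have unadjusted p-values of 0.0523, 0.0577 and 0.168.

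Next, the difference between the responses of resistant and sensitive lines was tested as a contrast. The median over host genes was -0.19, beside -0.02 over all genes tested, and 7 of 10 estimates were below 0, as were 52.5% of all genes. The median was -0.25 without HeyA8, -0.10 without SKOV3 and -0.11 without OV2008_C13, and in the last case 5 estimates were below and 5 above 0. In edgeR 0 of 10 host genes had an unadjusted p under 0.05, where 1.16% of all genes did in either direction, and 0 passed the adjusted threshold. DESeq2 gave 1 at the unadjusted threshold, SNHG1, among 167 of 18720 genes. SNHG8 had a difference of -0.57 (SE 0.272, edgeR unadjusted p = 0.0577, adjusted p = 1) and SNHG1 one of -0.52 (SE 0.242, unadjusted p = 0.0523, adjusted p = 1). With the isogenic family as a further term, so that each resistant line was set against its own partner, both had unadjusted p-values under 0.05, 0.0387 for SNHG1 and 0.0232 for SNHG8, as had 438 of 18720 genes, and both had an adjusted p of 1. Leaving out 1 line moved the difference for SNHG8 either way. It was -0.72 without HeyA8 (edgeR unadjusted p = 0.0356) and -0.72 without OV2008_C13 (unadjusted p = 0.0380), but -0.42 without OV2008 (unadjusted p = 0.208) and -0.42 without SKOV3_TR (unadjusted p = 0.206). Without HeyA8_MDR or SKOV3 its unadjusted p was 0.110 and 0.113. The difference for SNHG1 was -0.59 without HeyA8 (edgeR unadjusted p = 0.0629) and -0.38 without SKOV3 (unadjusted p = 0.220). In none of the fits that left out 1 line was its unadjusted p under 0.05.

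SNHG1 was the one host gene higher in every sensitive line and lower in every resistant line, a split in opposite directions found for 0.983% of the genes tested. Levels in vehicle and QC cells were 68.1 and 68.4 CPM in HeyA8, 119 and 158 CPM in SKOV3, and 238 and 242 CPM in OV2008. Only SKOV3 among these had a counting interval that excluded 0, from 0.34 to 0.49. In resistant cells the pairs were 101 and 85.5 CPM in HeyA8_MDR, 254 and 182 CPM in SKOV3_TR, and 282 and 211 CPM in OV2008_C13, and all 3 intervals lay below 0. The mean log2 difference was 0.15 ± 0.231 in sensitive and -0.38 ± 0.127 in resistant lines (SD, n = 3 each).

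SNHG8 followed a similar order without separating as fully. Its level was 34.5 and 31.0 CPM in vehicle and QC cells of HeyA8, 30.0 and 32.9 CPM in SKOV3, and 36.9 and 50.8 CPM in OV2008. The resistant pairs were 66.9 and 48.6 CPM in HeyA8_MDR, 47.6 and 29.8 CPM in SKOV3_TR, and 69.9 and 63.0 CPM in OV2008_C13. The log2 difference in HeyA8, -0.15, was about as low as the -0.15 of OV2008_C13, so the groups overlapped. An annotation lifted to GRCh37 places 37.6% of the exonic bases of SNHG8 opposite exons of PRSS12, which averaged 15.04 CPM against 45.1 CPM for SNHG8. Whether counting used strand, and how reads over both genes were assigned, is not given in the sources used here. The effect of this overlap on the counts was not tested.

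SNHG12, the host of SNORA16A, SNORA44, SNORA61 and SNORD99, had the lowest counts of the set, down to 104 in QC-treated HeyA8_MDR cells, and its level spanned 6.16 to 47.6 CPM. It was lower with QC in HeyA8 and in all 3 resistant lines, by log2 differences from -0.24 to -0.77, and was higher in SKOV3 (0.21) and OV2008 (0.19). EPB41L4A-AS1, which hosts SNORA13, had the same directions in all 6 lines, from -0.74 in SKOV3_TR to 0.33 in SKOV3, over levels of 12.1 to 42.7 CPM. Of its exonic bases, 51.2% lie opposite exons of EPB41L4A (mean 14.3 CPM), so its counts carry the same limit as those of SNHG8. The 6-line estimates were -0.21 for SNHG12 and -0.25 for EPB41L4A-AS1, with edgeR adjusted p-values of 0.552 and 0.469, and they were -0.17 and -0.20 without HeyA8.

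SNHG6, the host of SNORD87, and ZFAS1, the host of SNORD12, SNORD12B and SNORD12C, had 6-line estimates nearest 0. SNHG6 was at 20.8 to 93.5 CPM and differed by -0.04, -0.07 and -0.17 in HeyA8, SKOV3 and OV2008. It was higher with QC in HeyA8_MDR (0.33) and SKOV3_TR (0.24) and lower in OV2008_C13 (-0.38), each with a counting interval that excluded 0. ZFAS1 was higher in HeyA8_MDR (0.37) and lower in OV2008_C13 (-0.45) as well, and lay between -0.12 and 0.10 in the other 4 lines, over levels of 85.3 to 263 CPM. Their 6-line estimates of -0.01 and -0.02 (SE 0.124 and 0.121) had edgeR adjusted p-values of 0.972 and 0.947, and without HeyA8 they were -0.00904 and -0.02. In both genes the resistant lines thus disagreed in direction among themselves. ZFAS1 shares 3.0% of its exonic bases with the opposite-strand gene ZNFX1, which averaged 141 CPM and was lower with QC in 6 of 6 lines (log2 -0.52, edgeR unadjusted p = 0.00197). For SNHG6 the opposite-strand partner MCMDC2 covers 58.9% of its exonic bases at 1.34 CPM. For SNHG16 an unnamed protein-coding gene covers 28.5% at 0.918 CPM. The part of these partners in the counts was not tested.

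Within isogenic families the directions were not the same. In the HeyA8 family 7 host genes were lower with QC in both lines. In the SKOV3 family 1, SNHG5, was lower in both, 5 (SNHG1, SNHG8, SNHG12, SNHG15 and EPB41L4A-AS1) were higher in SKOV3 and lower in SKOV3_TR, and 4 (GAS5, SNHG6, SNHG16 and ZFAS1) were lower in SKOV3 and higher in SKOV3_TR. In the OV2008 family the log2 difference was lower in OV2008_C13 than in OV2008 for 10 of 10 host genes, with a median gap of -0.39. The median gap was -0.14 in each of the other two families, with 6 of 10 lower in HeyA8_MDR than in HeyA8 and 5 of 10 lower in SKOV3_TR than in SKOV3. With 1 library per line and treatment these gaps have no replicate check. No share over all genes tested stands beside these family counts. They are a description and cannot be read as particular to the host genes.

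Without drug, the estimated levels of the host genes were higher in resistant cells than in their sensitive partners, though 0 host genes passed the adjusted threshold in edgeR or DESeq2. In the vehicle libraries 10 of 10 estimates were above 0, with a median log2 difference of 0.48 beside 0.01 over all 16091 genes tested, of which 51.1% were above 0, although GAS5, SNHG16, ZFAS1 and EPB41L4A-AS1 lay below 0 under RPLP0 scaling. Host genes were higher in the resistant line in 27 of 30 pairs of a family and a gene, and in all 3 families for 7 of 10 host genes, as in 13.1% of all genes. The median difference was 0.27 for HeyA8_MDR over HeyA8, 0.50 for SKOV3_TR over SKOV3 and 0.50 for OV2008_C13 over OV2008. Over all genes tested, these family medians were -0.03, -0.01 and 0.04. In the same order, 47.1%, 49.2% and 52.6% of those genes were higher in the resistant line. SNHG8 had an unadjusted p under 0.05 in edgeR and in DESeq2, where edgeR found 1.90% of all genes higher at that threshold and DESeq2 found 1058 of 16091 genes in either direction. With 3 families and 2 residual degrees of freedom, edgeR with its filter gave no gene an adjusted p below 0.975, whereas 41 genes passed the adjusted threshold in DESeq2 and 146 of 36276 in edgeR without the filter.

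**Figure D4:**
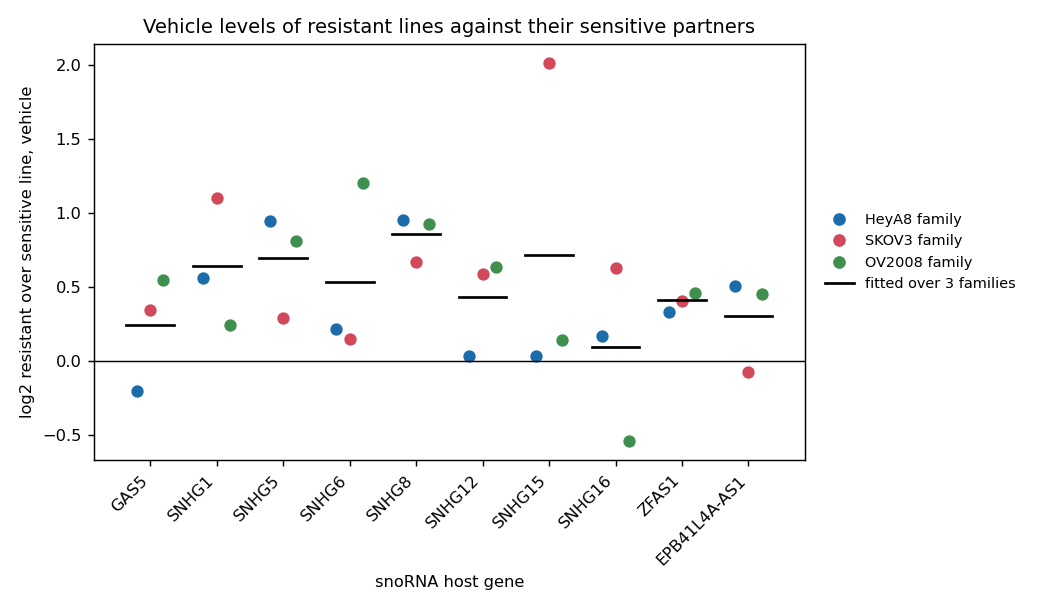
Log2 ratio of the vehicle level in each resistant line over its sensitive partner, on the y axis, for each snoRNA host gene on the x axis, with 1 coloured point per isogenic family and a black line at the value fitted over the 3 families. Of the 30 points, 27 lie above 0 under TMM scaling, where 47.1% to 52.6% of all genes tested did in each family. With RPLP0 scaling the fitted values of GAS5, SNHG16, ZFAS1 and EPB41L4A-AS1 lay below 0.

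SNHG8 vehicle levels were 34.5, 30.0 and 36.9 CPM in the sensitive lines HeyA8, SKOV3 and OV2008, and 66.9, 47.6 and 69.9 CPM in their resistant partners. All 3 resistant values lay above all 3 sensitive ones, with means of 61.4 ± 12.1 and 33.8 ± 3.49 CPM (SD, n = 3 each), a separation found for 1.86% of the genes tested and for no other host gene. The fitted difference was 0.86 (SE 0.282, edgeR unadjusted p = 0.0252, adjusted p = 0.975, and from 0.454 to 1 in the alternatives). Without the HeyA8 family it was 0.80 (unadjusted p = 0.0985), and without the OV2008 family its unadjusted p was also above 0.05. Without the SKOV3 family 2 host genes, SNHG5 and SNHG8, were under 0.05 unadjusted.

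The remaining host genes were higher in resistant vehicle cells by unequal amounts. SNHG5 was 1.93-fold higher in HeyA8_MDR, 1.22-fold in SKOV3_TR and 1.75-fold in OV2008_C13, with a fitted log2 difference of 0.69 (edgeR unadjusted p = 0.0557). SNHG1 was 1.48-, 2.14- and 1.18-fold higher in the same order, with a fitted value of 0.64 (unadjusted p = 0.0776). ZFAS1 was the most even of the set, at 1.26-, 1.33- and 1.37-fold. SNHG15 stood out by 1 family, being 4.03-fold higher in SKOV3_TR than in SKOV3, where its level was the lowest of all libraries, but 1.02- and 1.10-fold in the HeyA8 and OV2008 families. Without the SKOV3 family its fitted log2 difference went from 0.72 to 0.10. SNHG6 likewise turned on OV2008_C13 (2.30-fold, against 1.16- and 1.11-fold). The 3 pairs in which the resistant line was lower were GAS5 in HeyA8_MDR (0.869-fold), EPB41L4A-AS1 in SKOV3_TR (0.949-fold) and SNHG16 in OV2008_C13 (0.687-fold).

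The vehicle libraries enter both this comparison and the QC comparison, as the level itself and as the denominator, so the 2 sets of values share data. OV2008_C13 vehicle cells had the highest level of any library for SNHG1, SNHG5, SNHG8, SNHG12 and SNHG15. After QC, the mean SNHG5 level was 54.9 ± 7.95 CPM in resistant and 38.0 ± 9.75 CPM in sensitive lines (SD, n = 3 each), and the mean SNHG1 level was 160 ± 65.9 and 156 ± 86.7 CPM.

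Other genes of the same pathway were placed beside the host genes. For all list counts that follow, 50.0% of all genes tested had 6-line estimates below 0. In vehicle cells, 51.1% had estimates above 0. Of 20 other non-coding snoRNA hosts 19 were tested over the 6 lines, 15 had estimates below 0 and the median was -0.19. At an unadjusted p under 0.05, 5 of them were lower with QC and 1 was higher, where 7.18% of all genes were lower and 7.99% higher, and 0 passed the adjusted threshold. SNHG4 was lower in 6 of 6 lines with an estimate of -1.01 (SE 0.215, edgeR unadjusted p = 0.000591, adjusted p = 0.141). SNHG20 and SNHG25 were also lower in 6 of 6 lines, with estimates of -0.51 and -0.80, although SNHG25 had as few as 9 counts. SNHG18, at -0.82, had libraries at 0 counts, and its SKOV3 and SKOV3_TR differences were 0. SNHG17 (-0.33) and SNHG30 (0.51) complete the count and were named after their values were seen. In vehicle cells 18 of the 19 were higher in resistant lines, with a median of 0.43. At an unadjusted edgeR p under 0.05, 3 of the 19 were higher, beside 1.90% of all genes tested. These were SNHG7 (1.03), SNHG19 (1.30) and SNHG22 (2.06), likewise named after their values were seen.

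**Figure D5:**
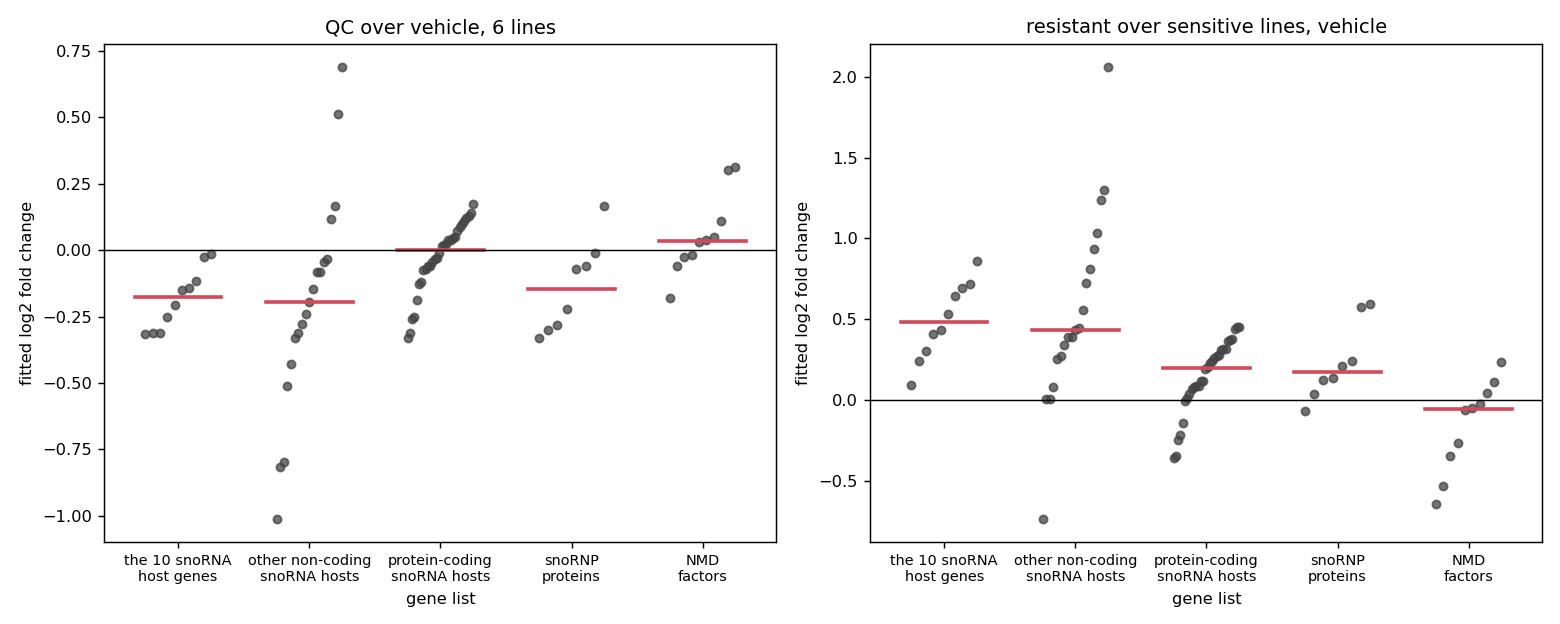
Fitted log2 fold change of every tested gene (points) in each of 5 gene lists on the x axis, for QC over vehicle across 6 lines (left) and for resistant over sensitive lines in vehicle (right), on y axes of different range; red bars are medians. On the left the medians are -0.18 for the 10 host genes, -0.19 for the other non-coding hosts and 0.00 for protein-coding hosts, and on the right they are 0.48, 0.43 and 0.20; scaling to RPLP0 puts the median of all genes at 0.18 on the left and -0.41 on the right.

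The 30 protein-coding hosts of snoRNAs, mostly ribosomal protein and translation factor genes, divided evenly over the 6 lines, with 15 estimates below 0, 15 above 0 and a median of 0.00. Of these, 1 was lower at an unadjusted edgeR p under 0.05, where 7.18% of all genes tested were. NOP56, which is both a snoRNA host and a core protein of C/D box particles, was lower in 6 of 6 lines with an estimate of -0.33 (SE 0.109, edgeR unadjusted p = 0.0104, adjusted p = 0.198). The elongation factor gene EEF2 was lower in 6 of 6 lines as well (-0.25, adjusted p = 0.339). RPL3 had an estimate of -0.26, and EIF4A1 had one of -0.31 from only 72 to 378 counts. Their vehicle median was 0.20, with 24 of 30 higher in resistant lines and 0 under 0.05 unadjusted.

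Among the 8 snoRNP proteins, which bind snoRNAs and carry out or scaffold the modification, 7 had estimates below 0, with a median of -0.15, and NOP56 was the 1 with an unadjusted p under 0.05. GAR1, NHP2 and NOP10 of the H/ACA particle had estimates of -0.28, -0.30 and -0.22 with edgeR adjusted p-values of 0.351, 0.510 and 0.513. Of the 10 NMD factors, 4 were below 0 and 6 above, with a median of 0.03. UPF2, which bridges the NMD helicase and the exon junction complex, had an estimate of 0.30 and was higher in 5 of 6 lines (edgeR unadjusted p = 0.0441, adjusted p = 0.315). UPF3B was at 0.31 and the helicase UPF1 at 0.11, with adjusted p-values of 0.380 and 0.673. In vehicle cells 7 of the 10 NMD factors were lower in resistant lines, with a median of -0.06, and 7 of the 8 snoRNP proteins were higher, with a median of 0.17.

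RPLP0 itself, the reference gene of the study's qPCR, was lower with QC in HeyA8 (-0.06), SKOV3 (-0.29), OV2008 (-0.47) and OV2008_C13 (-0.48), and higher in HeyA8_MDR (0.11) and SKOV3_TR (0.09). Scaling to it put the median of all genes at 0.18 over the 6 lines, at 0.29 in sensitive lines, at 0.08 in resistant lines and at -0.41 in the vehicle comparison. Relative to those medians, the host gene medians were -0.17 over the 6 lines, -0.08 in sensitive lines, -0.36 in resistant lines and 0.47 in vehicle cells.

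The snoRNAs themselves could not be followed. Of the 34 snoRNAs listed for these hosts, 6 had a gene identifier placed inside its host, and none of them reached 10 counts in every library. Together the 6 had 322 counts in the 12 libraries, against 216034 on the 10 host genes, and SNORD99 had the most, with 114. The libraries were made from polyA RNA.

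Lastly, the genes with the most similar profile were sought among 10118 genes with a mean of at least 10 CPM, by the root mean square difference of their 6 line values from the mean of the 10 host genes. That mean was -0.30 in HeyA8, -0.28 in HeyA8_MDR, 0.02 in SKOV3, -0.17 in SKOV3_TR, -0.01 in OV2008 and -0.36 in OV2008_C13. The host genes did not share a single profile. Over their 45 pairs the median Pearson r across lines was 0.11, and 26 pairs were positive. A gene near the mean is thus not near each host gene. The closest was KHSRP, an RNA-binding protein gene, with a root mean square difference of 0.0516 log2 units, and its own values ran from -0.35 in OV2008_C13 to 0.03 in SKOV3. KLHL8, PYGO1, DYNLL2 and DENND6A followed, at 0.0647, 0.0761, 0.0765 and 0.0822.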

How the data were processed

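PolyA RNA from 12 cultures was sequenced from TruSeq libraries. The deposited values are raw counts per gene, which the authors made without normalization. The study's methods name TopHat, hg19 and HTSeq, whereas the submitters' processing notes list STAR 2.7.3a, HTSeq 0.6.1p1 and GRCh38.p13. The strand setting and annotation are not given in the sources used here. Identifiers were matched to symbols without their version (58620 of 60669; the rest hold 0.132% of counts).

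The tests were run in edgeR 4.0.16 (R 4.3.3): filterByExpr (minimum count 10, minimum total 15), TMM, and quasi-likelihood tests, two-sided, with Benjamini-Hochberg adjustment over all genes tested (18720 for QC, 16091 for vehicle levels). QC fits had a cell line term and 5 residual degrees of freedom (4 with separate effects for sensitive and resistant lines); the vehicle fit had a family term and 2. The 2 libraries of a line departed jointly from their group means (r from 0.893 to 0.929 across genes), and the pairing comes from the shared line. P-values measure the spread between lines, and partner lines share an origin. Line values are log2 ratios of CPM with a prior count of 2, with exact 95% (Clopper-Pearson) intervals that cover counting error only. Levels were not compared between genes, since transcript lengths in the authors' annotation are not given in the sources used here. The fits were also run on simulated data, drawn with the common dispersion (spread) of the fit with separate effects, 0.0575. The vehicle fit had a common dispersion of 0.245, so the simulation does not check it at its own spread.

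The 10 members and the gene lists were chosen with earlier results of these data known. Named genes are the 10 members, the 4 smallest p-values of each other list over the 6 lines, RPLP0, and the 5 nearest profiles; others are said to be named after their values were seen. Some items that this rule or the overlap annotation names are not reported here. NOP56 and DKC1 are in both the protein-coding host and snoRNP lists. Alternatives were DESeq2 1.42.0, its size factors, library size alone, RPLP0 scaling, a filter of at least 10 counts per library or none, other model terms, and leaving out each line or family. Plots were drawn with matplotlib 3.10.9.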

Additional observations from a re-analysis of the deposited data

Results flagged for a closer look

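SNHG1 was flagged because its QC response went up in each sensitive line (0.01 in HeyA8, 0.41 in SKOV3 and 0.02 in OV2008) and down in each resistant line (-0.23 in HeyA8_MDR, -0.48 in SKOV3_TR and -0.41 in OV2008_C13). The difference between the groups was -0.52 on the log2 scale (edgeR unadjusted p = 0.0523, adjusted p = 1), and it fails the correction. Opposite directions of this kind were found for 0.983% of the genes tested, and the HeyA8 and OV2008 counting intervals included 0. Leaving out 1 line put the difference between -0.60 (without HeyA8_MDR) and -0.38 (without SKOV3, unadjusted p = 0.220), with -0.44 without SKOV3_TR (unadjusted p = 0.155) and -0.59 without HeyA8.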

How the results depend on the processing

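In all analyses run, 0 host genes had an adjusted p under 0.05. Of 620 host gene estimates in the alternatives, 579 kept their direction and their side of that threshold and 41 changed direction, most of them for genes near 0; except where a scaling shift is given, the cause was not tested. The cell line block and the family block are part of the design. Without the cell line block, the log2 estimates over the 6 lines were above 0 for SNHG6 (0.0398) and ZFAS1 (0.0140). Without these blocks the number of host genes at an unadjusted p under 0.05 went from 3 to 0 over the 6 lines, and from 1 to 0 in vehicle cells. RPLP0 scaling gave 0 over the 6 lines, in resistant lines and in vehicle cells, and 1 for the difference. Its medians over host genes were 0.00864 over the 6 lines, 0.21 in sensitive lines and 0.0532 in vehicle cells. Estimates that it turned were, over the 6 lines, GAS5 0.0349, SNHG1 0.0692, SNHG6 0.17, SNHG8 0.0431 and ZFAS1 0.16. In sensitive lines they were SNHG5 0.0278, SNHG6 0.18, SNHG15 0.10, ZFAS1 0.25 and EPB41L4A-AS1 0.24, and in resistant lines ZFAS1 0.0669. For the difference they were SNHG6 -0.0246 and SNHG16 -0.0410, and in vehicle cells GAS5 -0.19, SNHG16 -0.33, ZFAS1 -0.0177 and EPB41L4A-AS1 -0.12. In resistant lines, 2 host genes at an unadjusted p under 0.05 became 1 with DESeq2, 4 with at least 10 counts in every library, and 0 with DESeq2 size factors, with no filter or with the 6 libraries of the group alone. For the difference, 0 became 1 with DESeq2, with library size alone and with the filter of at least 10 counts per library, and 2 with the family term. The log2 difference for ZFAS1 between the groups was 0.0247 with DESeq2 or its size factors and 0.00971 with at least 10 counts. In vehicle cells 1 host gene at an unadjusted p under 0.05 became 2 with at least 10 counts.

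Leaving out a line or family gave 0 to 3 host genes over the 6 lines, 0 to 1 in sensitive lines, 0 to 2 in resistant lines, 0 to 1 for the difference and 0 to 2 in vehicle cells. Ranges that crossed 0 were, over the 6 lines, -0.0961 to 0.0492 for SNHG6 and -0.12 to 0.0490 for ZFAS1. In sensitive lines they were -0.24 to 0.21 for EPB41L4A-AS1, -0.000163 to 0.21 for SNHG1, -0.00779 to 0.30 for SNHG8, -0.0915 to 0.20 for SNHG12 and -0.0824 to 0.0116 for ZFAS1. In resistant lines they were -0.11 to 0.11 for GAS5, -0.0851 to 0.27 for SNHG6 and -0.24 to 0.17 for ZFAS1. For the difference they were -0.20 to 0.0347 for SNHG5, -0.0974 to 0.34 for SNHG16 and -0.20 to 0.21 for ZFAS1, and in vehicle cells -0.17 to 0.43 for SNHG16. A prior count of 0.5 moved no line value by more than 0.0062. Depth limits the smallest counts (SNHG12 and SNHG15), and a p above a threshold does not show that levels were equal.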
